A study of Homo sapiens with 18 samples.

Results

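The microRNA genes of the human HOX clusters, MIR10A, MIR10B, MIR196A1, MIR196A2 and MIR196B, were followed by small RNA-seq in HEK293T, a line of human embryonic kidney cells, in which SSB was knocked down. The rows were taken by name: every row of at most 500 nt whose list of identifiers holds one of the 5 gene symbols. This gave 6 rows, of 2821 microRNA rows of that length and 175935 rows in the whole count table. MIR196A2 has a hairpin row and a mature row, and each other gene has a row that carries hairpin and mature entries together. HEK293T cells were transfected with RNAimax and either si-scramble, here called control, or si-SSB, here called siSSB, for 48 h. From each treatment, cytoplasmic (cyto), nuclear (nuc) and total RNA was sequenced in 3 replicates, which makes 6 groups and 18 libraries. All cells received a transfected siRNA, all RNA came from the mirVana PARIS kit, all libraries from the NEBNext small RNA kit, and all titles carry the mark PNK. The series text calls the replicates biological without naming their cultures, so p-values measure the spread between these samples.

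HOX genes encode homeobox transcription factors that set position along the body axis, and the microRNA genes between them are transcribed in a similar regional order. A microRNA is cut from a hairpin by Drosha in the nucleus and Dicer in the cytoplasm, and the mature strand guides Argonaute to mRNAs that pair with its seed. Targets of miR-196 include HOX mRNAs, with HOXB8 a classical case, and targets of miR-10 include HOX genes as well. SSB encodes La, which binds the uridine-rich 3′ ends of RNA polymerase III transcripts, whereas these microRNA genes are RNA polymerase II genes.

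The mature sequences show which genes differ in their letters, and they also bear on the family name. The RefSeq set used here (GRCh38.p14) held 9 mature entries with 8 names for the 5 genes. The 5p strands of miR-10a, miR-196a and miR-196b and, for the pairs MIR10A and MIR10B and MIR196A1 and MIR196A2, the 3p strands are given 5′ to 3′, with the seed (bases 2 to 8) in capitals. MIR10B also encodes hsa-miR-10b-5p, which was missing from the set used, so the 5p strands of MIR10A and MIR10B were not compared.
hsa-miR-10a-5p: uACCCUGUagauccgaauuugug
hsa-miR-196a-5p: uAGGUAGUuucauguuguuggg
hsa-miR-196b-5p: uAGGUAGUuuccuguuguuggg
hsa-miR-10a-3p: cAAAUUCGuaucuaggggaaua
hsa-miR-10b-3p: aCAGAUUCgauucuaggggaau
hsa-miR-196a-3p: cGGCAACAagaaacugccugag
hsa-miR-196a-1-3p: cAACAACAuuaaaccacccga
The mature miR-196a-5p of MIR196A1 and of MIR196A2 differed at 0 of 22 bases. The miR-196b-5p of MIR196B differed from it at 1 of 22 bases, A12C, counted from 1 at the 5′ end with the miR-196a base first. The seed AGGUAGU is shared by miR-196a-5p and miR-196b-5p and by no other of the 2370 mature names in the table, while miR-10a-5p carries ACCCUGU. The miR-196 genes therefore do not have the seed that defines miR-10, and the rows were treated as a miR-10 pair and a miR-196 trio that share the HOX clusters. By sequence the 3p strands separate the loci: miR-10a-3p and miR-10b-3p differed at 3 of 21 bases when shifted by 1 base, and miR-196a-3p and miR-196a-1-3p come from different hairpins. The counts do not rest on these strands alone. The MIR10A row holds 5 of 22 bases of its 3p strand, and the MIR196A1 row 8 of 21.

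The rows lie on 4 chromosomes (hg38). The coordinates given are those of the rows, whereas overlaps with genes and distances to HOX genes were measured from the RefSeq hairpins, whose ends differ. MIR10A (chr17:48579881-48579951, minus strand) lies in an intron of HOXB3 and in an exon of a lncRNA, ENSG00000257178, 1488 nt from HOXB4. MIR10B (chr2:176150343-176150414, plus strand) lies in an intron of HOXD3, 1138 nt from HOXD4. MIR196A1 (chr17:48632508-48632578, minus strand) lies in an intron of HOXB7, and MIR196A2 (hairpin row chr12:53991719-53991859, mature row chr12:53991774-53991845, plus strand) lies in an intron of HOXC6, 1459 nt from HOXC10. MIR196B (chr7:27169503-27169574, minus strand) overlaps an exon of a HOXA9 transcript and lies 1042 nt from HOXA10. The rows of 71 or 72 nt are not limited to a single mature strand. The MIR10A row holds all 23 bases of miR-10a-5p and 5 of 22 bases of miR-10a-3p, whereas the MIR196A2 mature row holds all of miR-196a-3p and 10 of 22 bases of miR-196a-5p. The MIR10B row holds all of miR-10b-3p. Arms therefore cannot be told apart in these counts.

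The libraries held 21565995 to 158244813 counts over all rows, a sum in which overlapping rows each count a read. The counts of microRNA loci, with rows over other small RNA classes left out and 1 row kept for each of 1889 loci, were 89857 to 266862 in cyto, 31511 to 100148 in total and 5790 to 6816 in nuc. The nuclear values therefore rest on far fewer microRNA reads. SSB mRNA has no row in the table, so its knockdown was not measured here. A lncRNA row that overlaps SSB, HSALNG0020274, held 12 to 19 counts in the control total libraries against 547 to 1267 with si-SSB, and it does not measure the mRNA. The microRNAs of liver, blood, muscle and pancreas in a list of 9 rows (MIR122, MIR142, MIR223, MIR133A2, MIR206 and MIR216A) reached at most 7 counts in a library. A list of nuclear markers held long nuclear RNAs, small nucleolar RNAs, Cajal body RNAs and RNU2-1. It gave 30 of 87 rows (34.5%) higher in nuc than in cyto of control cells and 0 lower. The cytoplasmic list gave 6 of 9 rows (66.7%) lower in nuc and 0 higher. Of all 26774 rows tested in that comparison, 2465 were called higher in nuc and 3777 (14.1%) lower.

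MIR10A was the most abundant of the 5 genes in every library. In control cyto it had 13874, 11782 and 6295 counts, and in siSSB cyto 11653, 5657 and 21769. In control total it had 1967, 1656 and 2070 counts, and in siSSB total 3119, 7578 and 3173. In control nuc it had 238, 211 and 149 counts, and in siSSB nuc 200, 155 and 195. The nuclear libraries were thus the lowest, and the cytoplasmic libraries were high but spread over a wide range. As a share of the counts of microRNA loci, MIR10A made up 7.61% ± 1.44 (SD, n = 3) in control cyto, 5.48% ± 0.203 in control total and 3.20% ± 0.541 in control nuc. The matching shares in siSSB were 7.16% ± 0.939, 6.33% ± 1.14 and 2.80% ± 0.393. The 6 nuclear libraries, at most 3.53%, lay under all other libraries, at least 5.26%, while cyto and total overlapped. By its mean share MIR10A ranked 2 among the 1889 loci in control cyto, after MIR148A, 6 in control total and 8 in control nuc.

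MIR10B, the paralog in the HOXD cluster, followed MIR10A. In cyto it had 5664, 4967 and 2389 counts in control and 4884, 2216 and 9367 in siSSB. In total RNA it had 776, 672 and 749 counts in control and 1313, 3219 and 1260 in siSSB. In nuc it had 80, 75 and 68 counts in control and 67, 59 and 79 in siSSB. The same libraries were high and low as for MIR10A: siSSB cyto replicate 3 and siSSB total replicate 2 were the highest of their groups, and control cyto replicate 3 the lowest of its group. Its share was 3.09% ± 0.719 in control cyto, 2.12% ± 0.118 in control total and 1.20% ± 0.0461 in control nuc, with 2.97% ± 0.523, 2.63% ± 0.553 and 1.04% ± 0.144 in siSSB. No nuclear library reached the lowest share of the others, with 1.25% against 1.995%.

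MIR196B, in the HOXA cluster, was the most abundant of the miR-196 trio. It had 1450, 1254 and 1516 counts in control cyto and 2333, 1397 and 2863 in siSSB cyto. It had 348, 263 and 439 counts in control total and 571, 903 and 711 in siSSB total. In these raw counts the 3 siSSB total libraries were all above the 3 control total libraries. The counts of all microRNA loci were also higher there, 51046 to 100148 against 31511 to 37535. As a share of those loci MIR196B overlapped, with 0.90% to 1.19% in siSSB total and 0.83% to 1.17% in control total. In nuc it had 40, 34 and 40 counts in control and 35, 45 and 48 in siSSB, so that these groups overlapped. Its share of the microRNA loci was 1.07% ± 0.313 in control cyto, 1.00% ± 0.167 in control total and 0.615% ± 0.0660 in control nuc. In siSSB the shares were 1.34% ± 0.247, 1.07% ± 0.151 and 0.649% ± 0.0928. Unlike the miR-10 pair, its share in control cyto was highest in replicate 3.

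MIR196A1 and MIR196A2, in the HOXB and HOXC clusters, encode the same miR-196a-5p and were the least abundant. MIR196A1 had 532, 351 and 438 counts in control cyto and 708, 468 and 823 in siSSB cyto. It had 99, 86 and 141 counts in control total, 132, 294 and 215 in siSSB total, 8, 9 and 6 in control nuc and 8, 11 and 14 in siSSB nuc. The nuclear counts are close to the limit of what could be compared, and MIR196A1 did not pass the filter on low counts in the nuclear knockdown comparison. The MIR196A2 mature row had 538, 411 and 489 counts in control cyto and 779, 444 and 923 in siSSB cyto. It had 106, 83 and 161 counts in control total, 115, 270 and 237 in siSSB total, 10, 12 and 4 in control nuc and 14, 10 and 6 in siSSB nuc. The hairpin row of MIR196A2, which is 141 nt long, held 4614 counts over all libraries against 4612 in the mature row. The hairpin row thus held 2 more counts, 1 in each of 2 libraries, so values are given for the mature row alone. Counts of rows called include both rows of MIR196A2, so 6 rows stand for 5 genes. The mean shares of MIR196A1 ran from 0.124% in control nuc to 0.419% in siSSB cyto, and those of the MIR196A2 mature row from 0.139% to 0.436% in the same groups.

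**Figure D1:**
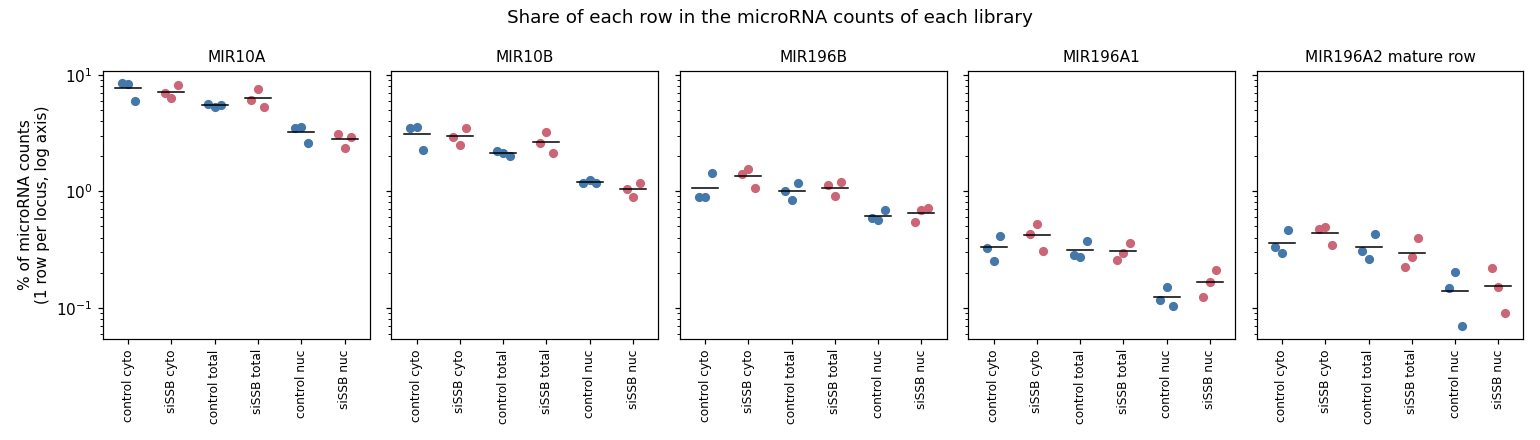
Share of each row in the counts of microRNA loci (percent, log axis) in each of the 18 libraries, by group. Points are libraries, black lines are group means, blue is control and red is siSSB. For MIR10A the 6 nuclear libraries lie at or under 3.53% and all others at or over 5.26%.

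The order of the genes was the same by share in every group: MIR10A, MIR10B, MIR196B, and then the miR-196a pair. Per nucleotide of row length, MIR10A held 2.22 to 3.03 times the counts of MIR10B over the 18 libraries, with a median of 2.53. MIR10A held 3.49 to 9.70 times the counts of MIR196B, a much wider range, with 9.70, 9.53 and 4.21 in control cyto. MIR196B held 1.35 to 3.97 times the sum of MIR196A1 and MIR196A2. The miR-10 pair thus kept a narrow ratio across fractions and treatments, and the ratio between miR-10 and miR-196 spread between replicates of the same group.

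Ratios were compared between nuc and cyto and between siSSB and control by exact two-sided permutation tests, 6 in all, chosen after the values had been seen. The smallest p was for MIR196B over MIR196A1 plus MIR196A2, which was higher in nuc by a mean log2 ratio of 0.51 (exact permutation p = 0.035, Benjamini-Hochberg adjusted p = 0.21, 6 against 6 libraries). None of the 6 passed after adjustment. For MIR10A over MIR10B, nuc minus cyto was 0.12 (exact permutation p = 0.17) and siSSB minus control was -0.04 (exact permutation p = 0.537) on the log2 scale. The highest value of the MIR196B ratio, 3.97, came from control nuc replicate 3, where MIR196A2 had 4 counts.

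**Figure D2:**
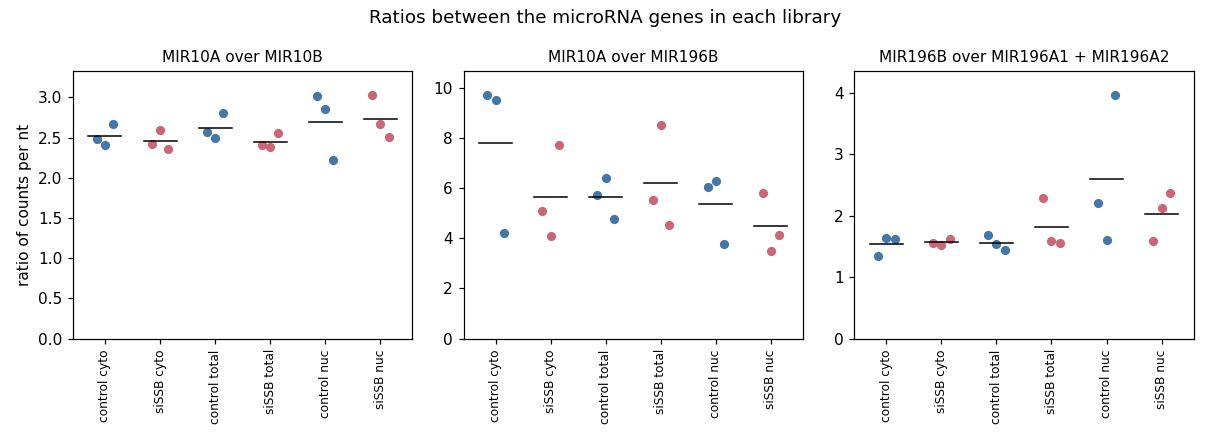
Ratios of counts per nucleotide between genes (vertical axes, starting at 0) in each library, by group. Points are libraries, black lines are group means, blue is control and red is siSSB. MIR10A over MIR10B stays between 2.22 and 3.03, whereas MIR10A over MIR196B runs from 3.49 to 9.70.

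MIR196A1 and MIR196A2 split the miR-196a counts almost evenly, with 48.5% at MIR196A1 over all libraries. The 95% Wilson interval held 50% in 16 of 18 libraries. The exceptions were control cyto replicate 2, with 46.1% (42.6 to 49.6), and siSSB cyto replicate 3, with 47.1% (44.8 to 49.5). These intervals cover counting error only. The loci share all bases of miR-196a-5p, and how reads with several equal positions were placed is not given in the sources used here, so the counts of MIR196A1 and MIR196A2 are uncertain as measures of each locus.

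The question of the fractions was whether these microRNAs are held in the nucleus or in the cytoplasm. All 6 rows were lower in nuc than in cyto, in control and in siSSB cells. In control cells, 6 of 6 rows were called at an adjusted p under 0.05 (edgeR quasi-likelihood test, Benjamini-Hochberg over 26774 rows). Of all rows tested, 23.3% were called and 14.1% were called lower in nuc. Counts were scaled by TMM, which takes most rows as equal between libraries, and mean values are given as CPM, which relates each count to the scaled library size. MIR10A had 6.23 ± 0.792 CPM in nuc and 93.1 ± 47.4 CPM in cyto (SD, n = 3 each), a log2 fold change of -3.90 ± 0.38 (SE, edgeR adjusted p = 5.31e-10). MIR10B had 2.35 ± 0.121 and 38.1 ± 20.3 CPM, a log2 fold change of -4.02 ± 0.39 (edgeR adjusted p = 6.35e-10). For both, every nuclear library lay below every cytoplasmic library. MIR196B had the smallest difference, -3.26 ± 0.33 (1.21 ± 0.190 against 11.6 ± 1.99 CPM), and MIR196A1 and the MIR196A2 mature row had -3.91 ± 0.40 and -3.86 ± 0.40.

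In siSSB cells, 6 of 6 rows were again called lower in nuc, where 25.3% of 26274 rows were called and 14.5% were called lower. MIR10A had 6.45 ± 1.72 CPM in nuc and 129 ± 87.9 CPM in cyto, a log2 fold change of -4.33 ± 0.43 (edgeR adjusted p = 6.46e-09). MIR10B had -4.50 ± 0.45, MIR196A1 -4.10 ± 0.41, the MIR196A2 mature row -4.35 ± 0.43 and MIR196B -3.87 ± 0.37. As in control cells, the nuclear and cytoplasmic libraries of all 6 rows did not overlap. How often this held over all rows tested was not counted, so it is not read as a trait of these rows.

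The size of this difference depended on the scaling, and its direction did not. Scaled to the counts of the other microRNA loci, an alternative chosen after seeing the data, the 6 rows ran from -1.52 to -0.91 in control cells and from -1.63 to -1.17 in siSSB cells. Under that scaling MIR196B in control cells was no longer called (-0.91 ± 0.48, edgeR adjusted p = 0.0906), while 5 of 6 rows in control cells and 6 of 6 in siSSB cells were called lower. Under it 57.0% of all rows were called in control cells and 67.1% in siSSB cells, most of them higher in nuc, and 2.02% and 1.56% were called lower. Scaled to library size alone, the rows ran from -8.25 to -7.44 in control cells. Over these scalings the median of all rows tested moved from -4.34 to 2.01 in control cells, beside -0.27 under TMM, so the fold is relative to what is held equal. The planned microRNA total is dominated in nuc by MIR1291, whose rows lie over the snoRNA SNORA2C and hold 78.4% to 85.0% of it. In that total the 5 genes together made up 0.411% ± 0.101 in control nuc and 10.0% ± 2.24 in control cyto, and in the counts of microRNA loci 5.28% ± 0.583 and 12.5% ± 1.68. The amount of RNA in each fraction of a cell was not measured here, so the fold gives no ratio of molecules per cell.

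The same direction was seen for most microRNAs. Of 401 other microRNA rows tested in control cells, 281 were called lower in nuc and 31 higher, with a median log2 fold change of -2.99 beside -3.88 for the 6 rows. In siSSB cells the figures were 304 lower and 29 higher of 393, with a median of -3.44 beside -4.34. In control cells 83 of the 401 rows had a lower value than MIR10B and 162 a lower value than MIR196B. The rows other than MIR196B thus lay in the lower part of the microRNA distribution and not at its edge. MIR196B lay nearer the median, with 239 rows above it in control cells. Rows over other small RNA classes were not left out of this distribution.

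**Figure D3:**
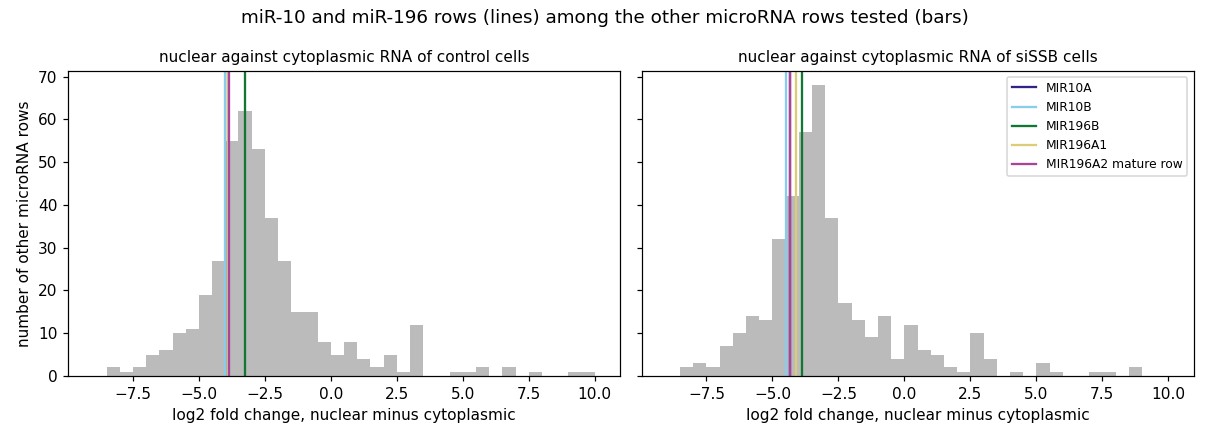
Distribution of the log2 fold change, nuclear minus cytoplasmic (horizontal axis), over the other microRNA rows tested (grey bars, number of rows), in control cells (left, 401 rows) and siSSB cells (right, 393 rows). Coloured lines mark the rows of MIR10A, MIR10B, MIR196B, MIR196A1 and MIR196A2, which run from -4.02 to -3.26 on the left.

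Knockdown of SSB was compared first in total RNA. All 6 rows had a higher mean in siSSB, and 0 of 6 were called, while 1.34% of 13883 rows tested were called (edgeR quasi-likelihood test). At an unadjusted p under 0.05 stood 6 of the 6 rows and 2301 of all rows tested. MIR10B had 26.6 ± 10.6 CPM in siSSB and 11.7 ± 1.58 CPM in control (SD, n = 3 each), a log2 fold change of 1.19 ± 0.31 (SE, edgeR adjusted p = 0.0799). MIR10A had 63.9 ± 23.8 and 30.3 ± 3.98 CPM, a log2 fold change of 1.08 ± 0.32 (edgeR adjusted p = 0.12). MIR196B had 10.4 ± 0.983 and 5.55 ± 1.19 CPM, a log2 fold change of 0.91 ± 0.25 (edgeR adjusted p = 0.0902). For these rows and MIR196A1 (0.81 ± 0.26, edgeR adjusted p = 0.131) the siSSB libraries did not overlap the control libraries. How many of all rows tested did so was not counted, so this is not read as a trait of these rows. The MIR196A2 mature row overlapped, with 0.68 ± 0.30 (edgeR adjusted p = 0.279).

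These values moved with the scaling and with the tool. Under DESeq2, MIR10B alone was called (1.15, DESeq2 adjusted p = 0.0479), where 0.44% of all rows were. When counts were scaled to library size alone, 4 of 6 rows were called beside 5.14% of all rows, and the median of all rows tested was 0.55 beside -0.01 under TMM. Scaled to the total of rows up to 500 nt, 4 of 6 were called beside 4.98% of all rows, and without the filter on low counts 1 of 6 beside 0.546%. Scaled to the counts of the other microRNA loci, 0 of 6 rows were called and the rows ran from -0.15 to 0.34, while 40.9% of all rows were called and their median was -0.83. MIR10A made up 5.65%, 5.26% and 5.51% of those loci in control total and 6.11%, 7.57% and 5.32% in siSSB total, so that the groups overlapped on that scale. Other microRNA rows had a median of 0.73 in this comparison under TMM, with 25 of 282 called higher and 0 lower, and 70 of them had a larger value than MIR10A. Among the total RNA libraries siSSB total replicate 2 had the highest count of every row, and without it MIR10A had the value 0.83 at the low end of its leave-one-out range.

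In nuclear RNA the knockdown values were small. Of the 6 rows, 5 passed the filter on low counts and 0 were called, where 0.378% of 6873 rows were called by edgeR. At an unadjusted p under 0.05 stood 0 of the 5 rows and 959 of all rows, and DESeq2 called 0. MIR10A had 1.49 ± 0.337 CPM in siSSB and 1.65 ± 0.203 CPM in control, a log2 fold change of -0.15 ± 0.27 (edgeR adjusted p = 0.825). MIR10B had -0.16 ± 0.29, MIR196B 0.11 ± 0.30 and the MIR196A2 mature row 0.15 ± 0.50. The groups of all 5 rows overlapped. At these counts a difference of the size of the standard errors was not detectable.

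In cytoplasmic RNA 0 of 6 rows were called, where 0.291% of 18921 rows were called by edgeR. DESeq2 called 0 as well, and 0 of the 6 rows and 1261 of all rows stood at an unadjusted p under 0.05. MIR10A had 455 ± 292 CPM in siSSB and 425 ± 217 CPM in control, a log2 fold change of 0.10 ± 0.52 (edgeR adjusted p = 0.994). MIR10B had 0.14 ± 0.55, and the values of the miR-196 rows were 0.54 ± 0.30 for MIR196B, 0.49 ± 0.31 for MIR196A1 and 0.46 ± 0.32 for the MIR196A2 mature row. All groups overlapped. The value of the miR-10 pair turned on replicate 3 of each group: without siSSB cyto replicate 3 MIR10A had -0.55 and MIR10B -0.55, and without control cyto replicate 3 they had -0.22 and -0.20.

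Whether knockdown acted differently on the nuclear and the cytoplasmic pool was tested as an interaction over 12 libraries. By edgeR 0 of 6 rows were called, where 0.0133% of 37493 rows were, and DESeq2 called 0 of 6. No row of the 6 reached an unadjusted p under 0.05, against 1837 of all rows. The differences, nuclear minus cytoplasmic knockdown effect, ran from -0.60 ± 0.47 for MIR196B to -0.18 ± 0.58 for MIR196A1, with edgeR adjusted p from 0.969 to 1.00. They share their libraries with the comparisons above. On simulated data the fit recovered 38.5% of planted changes in this interaction, so a row that was not called may still differ. The planted changes were larger than the differences of these rows.

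Relatives of miR-10 outside the HOX clusters were taken as a list, the MIR99A, MIR99B and MIR100 genes, whose mature strands resemble miR-10, and the MIR125A, MIR125B1 and MIR125B2 genes that lie beside them. All 6 were called lower in nuc than in cyto of control cells, and all 6 in siSSB cells. Of the microRNA rows other than the members, 70.1% were called lower in control cells and 77.4% in siSSB cells. Of all rows tested, 14.1% and 14.5% were, so the direction is not particular to these relatives. MIR100 had 0 counts in every nuclear library and 5 to 17 in the cytoplasmic libraries, so its fitted fold is not given. In control cells the other 5 ran from -4.40 for MIR99A to -2.67 for MIR125B2. The control nuclear libraries held 0 to 1 counts of MIR125B1 and 1 to 3 of MIR125B2, so the values of these genes rest on few reads. In total RNA 5 passed the filter and 1 was called on knockdown, MIR99B (1.18 ± 0.24, edgeR adjusted p = 0.0352), with a median of 0.91 over the list. In that comparison 1.34% of all rows tested were called, and 8.87% of the microRNA rows other than the members were called higher, with a median of 0.73. None were called in nuclear or cytoplasmic RNA. MIR99A, at 1.39% ± 0.341 of the microRNA loci in control cyto, was the most abundant of them there and stood below MIR10A and MIR10B. In siSSB total MIR99B had the higher mean share, 1.11% ± 0.123 against 1.06% ± 0.133 for MIR99A.

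Other microRNAs in the HOX clusters were MIR615, MIR3185 and MIR7704. MIR615, which lies in the HOXC cluster, made up 1.97% ± 1.19 of the microRNA loci in control cyto and 1.98% ± 0.160 in control nuc. Its 2 rows hold identical counts, and they were lower in nuc by the TMM scale in control cells (-2.33 ± 0.30, edgeR adjusted p = 2.18e-07) and in siSSB cells (-2.73 ± 0.42). In knockdown it had 0.79 ± 0.28 in total RNA and was not called. MIR3185 and MIR7704 had at most 2 counts in any library and were not tested.

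The lncRNAs of the HOX clusters were 150 rows, of which 6 span MIR10A, MIR196A1 or MIR196B. Those 6 rows held 4375 to 92172 counts, and the 144 rows that span none of them held 0 to 499. The HOXB-AS3 row that spans MIR10A, on the opposite strand, had 92172 counts, of which the MIR10A row alone accounts for 99.5%. Over all longer rows that span a microRNA, the share of counts that the microRNA row held was 99.5% to 99.96% for MIR10A, 91.1% to 99.3% for MIR196A1 and 96.8% to 99.4% for MIR196B. Reads on the MIR10A window were thus counted in rows of either strand, and the counts of such lncRNA rows are almost wholly those of the microRNA row. The 6 rows were all called lower in nuc of control cells. Of the 144 other rows 26 were tested there, with 3 called higher, 0 lower and a median of 0.71.

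The genes whose profiles were most alike over the 18 libraries were found by Pearson's r of log2 CPM among microRNA rows with a mean of at least 50 counts. For MIR10A they were MIR10B (r = 0.998), MIR128-2 (0.997) and MIR99A (0.996) among 156 rows, and for MIR10B MIR10A, MIR128-1 (0.997) and MIR128-2 (0.997). For MIR196B they were MIR196A1 (0.992), MIR92A2 (0.987) and MIR92A1 (0.987). For MIR196A1 they were MIR196B (0.992), MIR92A1 (0.988) and MIR92A2 (0.986). MIR196A2 was closest to MIRLET7A1 (0.989), MIR196A1 (0.977) and MIR183 (0.977). All points share the fractions and the library scaling, which set most of the spread, so these values describe the libraries and nothing more.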

How the data were processed

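Small RNA libraries of HEK293T cells (6 groups, 3 replicates each) were analysed from the raw counts per noncoding RNA row that the authors deposited. Per the labels, the processing named hg38, Bowtie2 and bedtools, and versions, read trimming, multi-mapped reads and strand use are not given in the sources used here. Overlapping rows each count a read, on either strand, so a sum over rows exceeds the reads. No column of per-sample values was left out.

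Groups were compared with the edgeR 4.0.16 quasi-likelihood test (R 4.3.3, limma 3.58.1) with TMM and filterByExpr, fitted over the whole table on the libraries compared. Benjamini-Hochberg adjustment ran over all rows tested, with calls made at an adjusted p below 0.05. The SE is the absolute log2 fold change divided by the square root of F. The fit was tested on simulated data with planted changes. It recovered 81.7% to 96.0% of them in the pairwise comparisons and 38.5% in the interaction. The planted changes were larger than every knockdown value of the 6 rows, and their spread was fixed. These shares therefore do not measure the power for knockdown changes of the size seen here. False calls made up 2.08% to 7.14% of the calls. Alternatives were DESeq2 1.42.0, other scalings, no filter, identical rows once, all 18 libraries, a replicate block and leaving out each library. The scaling to microRNA loci was added after seeing the data. The members and gene lists were chosen with earlier results of these data known. Genes were named by a fixed rule: all 5 genes, the listed relatives and the 3 profiles most alike per gene, among microRNA rows with a mean of at least 50 counts. Replicate numbers were not used to pair samples in the main fits, and whether equal numbers share a culture is not known. Mature sequences came from RefSeq and neighbouring genes from the GENCODE annotation of hg38.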

Additional observations from a re-analysis of the deposited data

How the results depend on the processing

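The nuclear against cytoplasmic difference kept its direction in all 6 rows under every alternative run, and its call in all but 1 value, MIR196B in control cells scaled to microRNA loci (-0.91). In total RNA, 0 of 6 rows were called on knockdown, and 4 were under library size alone (5.14% of all rows called), 4 under the total of rows up to 500 nt (4.98%), 1 under DESeq2 (0.44%) and 1 without the filter (0.546%). The other counts of called rows stayed the same without 1 library (0 to 0 in the 3 knockdown comparisons and the interaction, 6 to 6 between fractions).

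Some uncalled values changed sign, among them total RNA values of 0.67 to 0.81 under TMM and the interaction of MIR196B (-0.60), and the cause was not tested. On the scale of microRNA loci, total RNA knockdown gave -0.012 for MIR196A1 and -0.15 and -0.14 for the hairpin and mature rows of MIR196A2, cytoplasmic knockdown gave -0.093 for MIR10A and -0.059 for MIR10B, and the interaction gave 0.085 for MIR196A1. Scaled to the microRNA total, cytoplasmic knockdown gave -0.088 and -0.055 for MIR10A and MIR10B, nuclear knockdown 0.16 and 0.17, and the interaction 0.25 for MIR10A, 0.22 for MIR10B, 0.44 for MIR196A1, 0.16 for both MIR196A2 rows and 0.088 for MIR196B. In nuclear RNA MIR10A and MIR10B had 0.17 and 0.16 under library size alone and 0.12 and 0.11 under the total of rows up to 500 nt. In nuclear RNA both MIR196A2 rows had -0.010 without the filter and -0.015 with all 18 libraries, and MIR196B had -0.051, -0.046 and, under DESeq2, -0.035. The interaction of MIR196A1 was 0.13 under library size alone and 0.064 under the total of rows up to 500 nt.

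Without 1 library, nuclear knockdown ran from -0.36 to 0.031 for MIR10A, -0.45 to 0.0073 for MIR10B, -0.20 to 0.47 for both MIR196A2 rows and -0.15 to 0.21 for MIR196B. Cytoplasmic knockdown ran from -0.55 to 0.43 for MIR10A and -0.55 to 0.49 for MIR10B. The interaction ran from -0.77 to 0.32 for MIR10A, -0.84 to 0.32 for MIR10B and -0.51 to 0.12 for MIR196A1.

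With the replicate block the count of called rows was 0 for each knockdown comparison, 6 for each comparison of fractions and 0 for the interaction, and MIR10A in cytoplasmic RNA had -0.0033. Same-numbered libraries correlated from -0.42 to 0.13 over 15 pairs, with 2 above 0.1, and 4 of 15 matched their own number best. These correlations cannot decide whether libraries of the same number share a culture, which is not known. The main fits did not pair samples by number. Over all rows, the number called ranged from 69 to 5680 for total RNA knockdown (186 as reported), 0 to 67 for nuclear (26), 2 to 248 for cytoplasmic (55), 5042 to 26438 and 5066 to 25877 between fractions in control and siSSB cells (6242 and 6650) and 1 to 24 for the interaction (5). The nuclear libraries, with at most 6816 counts of microRNA loci, limit what can be said of the miR-196a rows there, and placement of reads from identical sequences limits the split of MIR196A1 and MIR196A2.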
